A study of Homo sapiens with 6 samples.

Results

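The focal adhesion genes ZYX, ACTN1, ACTN4, VCL, TLN1, PXN, LPP and FLNA were described at the level of the gene and of the isoform. They are 8 of the 19755 protein-coding genes measured, and they hold 122 of the 260410 transcript rows. The set was chosen by name around ZYX and ACTN1, whose isoforms were already known to differ between the groups in these data. The values that chose ZYX and ACTN1 are therefore given as a description, with no test, while ACTN4, VCL, TLN1, PXN, LPP and FLNA were tested.

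Transcripts of cells labelled EA.hy926, an established endothelial hybrid line, were sequenced in 6 libraries. Their titles also name human umbilical vein endothelial cells, and the labels do not settle which cells were used. The 3 control libraries and the 3 LPS libraries all came from cells in DMEM with fetal bovine serum at the 12 h time point. The LPS cells received 1000 ng/ml of lipopolysaccharide, a cell wall component of Gram-negative bacteria that activates innate immune signalling. The genotype field reads WT for the controls and LPS-induced for the others, and groups were taken from the titles because the treatment field is the same for all. Values are FPKM, fragments scaled to transcript length and to mapped fragments. Separate cultures are not named for the replicates, so the spread on which p-values rest may be technical.

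Focal adhesions are plaques at which integrin receptors in the cell membrane are tied to bundles of actin filaments. Talin binds the integrin tail, vinculin strengthens the link between talin and actin, alpha-actinins and filamin cross-link the filaments, paxillin is a scaffold for signalling proteins, and the LIM-domain proteins zyxin and LPP gather at sites under tension. In endothelium these plaques hold the cell layer on its matrix and pass on the forces of flow.

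The exons that separate the leading isoforms of ZYX and ACTN1 are shown because the results turn on them. All 4 were read from the GENCODE 29 transcripts on GRCh38, in the direction of transcription, with the alternative exon or exon part in capitals and 15 spliced bases of the neighbouring exons in lower case. In ZYX it is a coding exon at chr7:143382593-143382685 on the plus strand, 93 bases or 31 codons long. ZYX-201 holds it and ZYX-202 skips it. In ACTN1, on the minus strand, the longer alternative exon lies at chr14:68878989-68879069 (81 bases, 27 codons) and the shorter at chr14:68878458-68878523 (66 bases, 22 codons). Both are coding and fall in the EF-hand region of alpha-actinin 1, the part of the protein that can bind calcium. In alpha-actinin biology the longer exon is known as the non-muscle form, which is calcium-sensitive, and the shorter as the smooth muscle form. The last is an extension of the final coding exon at chr14:68875018-68875146, 129 bases or 43 codons, held by ACTN1-205 and by none of the other 20 ACTN1 rows.
ZYX alternative exon, from ZYX-201: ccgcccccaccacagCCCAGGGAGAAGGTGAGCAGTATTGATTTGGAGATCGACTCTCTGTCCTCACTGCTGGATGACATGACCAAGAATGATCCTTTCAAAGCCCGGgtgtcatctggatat
ACTN1 longer EF-hand exon, from ACTN1-201: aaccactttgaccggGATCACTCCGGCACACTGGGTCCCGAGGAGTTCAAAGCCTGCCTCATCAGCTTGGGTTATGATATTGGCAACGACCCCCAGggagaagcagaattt
ACTN1 shorter EF-hand exon, from ACTN1-204: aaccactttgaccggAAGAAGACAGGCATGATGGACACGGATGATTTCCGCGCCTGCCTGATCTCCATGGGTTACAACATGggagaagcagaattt
ACTN1 last-exon extension, from ACTN1-205: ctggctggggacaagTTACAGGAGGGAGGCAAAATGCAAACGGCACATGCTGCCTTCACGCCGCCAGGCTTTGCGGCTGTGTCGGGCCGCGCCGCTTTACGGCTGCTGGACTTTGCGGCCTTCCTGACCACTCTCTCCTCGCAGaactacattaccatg
The flanks of the longer and the shorter ACTN1 exon are the same letters, since either exon can join the same neighbours. All 4 lengths are multiples of 3, with 0 bases left over.

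**Figure D1:**
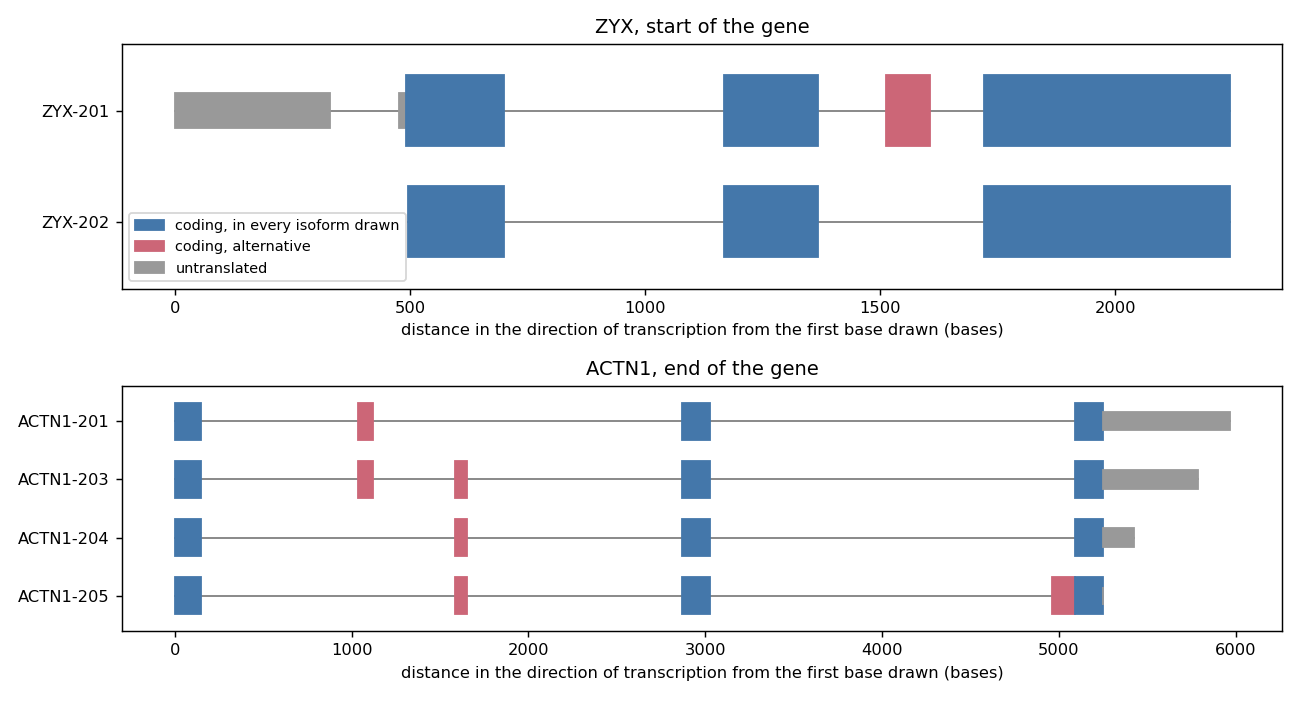
Exon maps of the leading ZYX isoforms at the start of the gene and of the leading ACTN1 isoforms at its end, drawn to scale from GENCODE 29, with distance in bases along the x axis. Tall boxes are coding, low grey boxes untranslated, and pink boxes the alternative coding parts: ZYX-202 lacks the 93-base exon, and ACTN1-203 alone has both EF-hand exons.

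ZYX encodes zyxin, which binds alpha-actinin and recruits actin regulators to strained filaments. In the controls most of its signal was assigned to the isoform without the 93-base exon, and in the LPS libraries to the isoform with it. ZYX-202, without the exon, stood at 86.5, 85.7 and 80.7 FPKM in controls 1 to 3 and was listed at 0 in all 3 LPS libraries. ZYX-201, with the exon, stood at 26.9, 24.8 and 13.1 FPKM in the controls and at 123, 122 and 113 FPKM in LPS 1 to 3. The groups did not overlap for either isoform.

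As a share of the gene's summed FPKM, ZYX-201 took 20.8%, 19.3% and 12.8% in the controls and 92.3%, 92.8% and 86.1% with LPS. Its mean share was 17.6% ± 4.27 in controls and 90.4% ± 3.73 with LPS (SD, n = 3), a difference of 72.8 percentage points. The difference stayed between 70.4 and 74.9 points when each library was left out. ZYX-202 took 67.0%, 66.7% and 78.9% in the controls. The 4 annotated ZYX rows that hold the exon took 31.2%, 31.7% and 18.3% together in controls and 95.5%, 95.8% and 90.7% with LPS. They include ZYX-208, annotated as a retained intron, at 9.53%, 11.4% and 3.40% in controls and 2.78%, 2.45% and 4.08% with LPS.

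The sum of ZYX-201 and ZYX-202 overlapped between the groups. It was 113, 110 and 93.8 FPKM in the controls and 123, 122 and 113 FPKM with LPS, so that LPS 3 lay below control 1. The 8 other ZYX rows each took at most 11.4% of the gene in any library. In the GENCODE 29 models, ZYX-202 has 0 exonic bases that ZYX-201 lacks, and only 1 of its 7 splice junctions is absent from ZYX-201. ZYX-201 has 443 bases and 3 junctions that ZYX-202 lacks. The deposited ZYX-201 starts at 143381345 and the GENCODE 29 model at 143381080, so part of the 443 bases lies outside the deposited model. GENCODE 29 marks the ZYX-202 model as incomplete at its start. The tables hold no reads across junctions, so the skipped and included junctions were not counted here, and how the authors' estimation divided shared bases was not tested.

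ACTN1 encodes alpha-actinin 1, which cross-links actin and binds zyxin and vinculin. Its leading isoform differed between the groups and also among libraries within each group. The largest part of ACTN1 was assigned to ACTN1-205 in controls 1 and 3, to ACTN1-203 in control 2, to ACTN1-204 in LPS 1 and LPS 2, and to ACTN1-201 in LPS 3.

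ACTN1-203, the only row with both EF-hand exons, stood at 58.3, 173 and 35.0 FPKM in the controls and was listed at 0 in all 3 LPS libraries. ACTN1-205, with the shorter EF-hand exon and the last-exon extension, stood at 176, 0.890 and 161 FPKM in the controls and at 0.153, 0.111 and 1.83 FPKM with LPS. Control 2 thus lay below LPS 3 for ACTN1-205, and its groups overlapped. ACTN1-204, with the shorter exon and no extension, stood at 1.24, 1.25 and 1.32 FPKM in the controls and at 215, 201 and 23.1 FPKM with LPS. ACTN1-201, with the longer exon only, stood at 51.1, 36.0 and 41.3 FPKM in the controls and at 99.6, 87.3 and 252 FPKM with LPS. For ACTN1-204 and ACTN1-201 every LPS library lay above every control, and LPS 3 was the lowest of its group for the former and the highest for the latter.

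The share of ACTN1-204 had the largest difference of group means. It was 0.389%, 0.534% and 0.471% in the controls and 60.2%, 62.6% and 6.97% with LPS, a difference of 42.8 percentage points. LPS 3 lowered that value, which was 60.97 points without LPS 3. The lowest values on leaving out a library were 33.1 points without LPS 2 and 34.3 points without LPS 1.

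**Figure D2:**
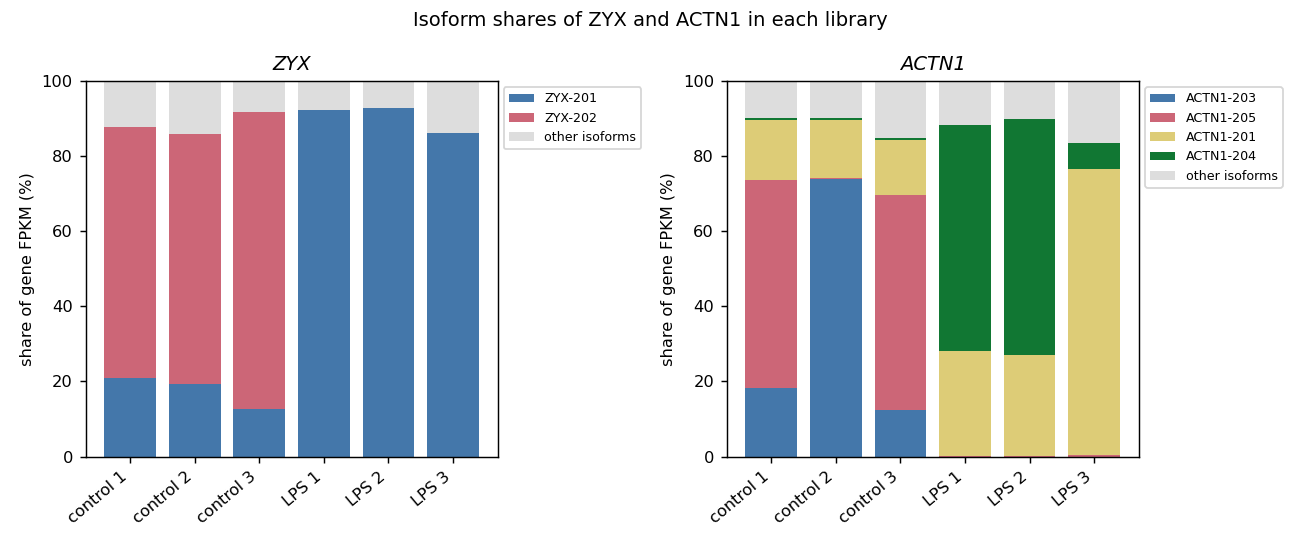
Stacked bars of the share of each gene's FPKM (y axis, in %) taken by its leading isoforms in each of the 6 libraries (x axis), for ZYX and ACTN1, with all other isoforms in grey. ZYX-202 fills 66.7% to 78.9% of the control bars and is listed at 0 with LPS, while the ACTN1 bars differ between control 2 and the other controls and between LPS 3 and the other LPS libraries.

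Grouped by exon, some classes of ACTN1 rows varied little among the controls and others varied much. Rows with the longer EF-hand exon and without the shorter took 16.4%, 15.8% and 15.3% of ACTN1 in the controls and 28.5%, 27.7% and 77.9% with LPS, so the groups did not overlap. Rows with the shorter exon, ACTN1-203 included, took 79.5%, 80.5% and 79.1% in the controls and 64.3%, 66.6% and 14.6% with LPS. Without ACTN1-203, rows with only the shorter exon overlapped, at 61.2%, 6.62% and 66.6% in the controls and the same LPS values. All rows with the longer exon, ACTN1-203 included, overlapped too, at 34.7%, 89.7% and 27.8% in the controls and the LPS values given for the longer exon. A row was counted where its annotated exons cover the whole alternative exon, so retained-intron rows are included. ACTN1-211, such a row counted with the shorter exon, also reaches into the longer one. ACTN1-211 took 5.45%, 5.68% and 5.15% in the controls and 3.86%, 3.93% and 6.36% with LPS. The retained-intron row ACTN1-216 was counted with the longer exon.

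The pair ACTN1-204 and ACTN1-205 carry the same EF-hand exon and differ in the last-exon extension and in their untranslated ends. Summed, they stood at 178, 2.15 and 162 FPKM in the controls and at 215, 201 and 24.9 FPKM with LPS, and the groups overlapped. The sum of ACTN1-201, ACTN1-203, ACTN1-204 and ACTN1-205 overlapped as well, at 287, 212 and 238 FPKM in controls and 314, 289 and 277 FPKM with LPS. ACTN1-204 has 0 bases and 0 junctions that are found in no other ACTN1 row, and ACTN1-203 has 0 such bases and 1 such junction. Among the other 17 ACTN1 rows none exceeded 6.36% of the gene in any library.

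Set against these isoforms, the gene totals differed little. All 8 totals had a positive log2 change with LPS on the log2(FPKM + 0.5) scale, from 0.11 to 0.28, where 47.8% of the 12068 tested protein-coding genes were positive and the median of all genes was −0.01. In 4 of the 8 (ZYX, ACTN1, TLN1 and FLNA) every LPS library lay above every control, against 8.68% of tested genes. None of the 8 totals passed the threshold of an adjusted p under 0.05 by limma, against 0.058% of tested genes. Of the 6 genes for which a test is given, 0 had an unadjusted p under 0.05 either, against 1254 of the 12068 tested genes.

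The ZYX total stood at 129, 129 and 102 FPKM in the controls and at 134, 131 and 131 FPKM with LPS (log2 change 0.14, SE 0.11), and the change was 0.034 without control 3. The 3 LPS values lay close together and just above controls 1 and 2, with control 3 lower. ACTN1 stood at 319, 235 and 281 FPKM in the controls and at 356, 322 and 332 FPKM with LPS (log2 change 0.28, SE 0.13), and the change was 0.168 without control 2. On GRCh38 ZYX lies at chr7:143381295-143391111 and ACTN1 at chr14:68874143-68979440.

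TLN1, which encodes talin 1 and links integrin tails to actin, stood at 261, 239 and 261 FPKM in the controls and at 286, 274 and 309 FPKM with LPS. Its log2 change was 0.19 (SE 0.092), with a limma adjusted p of 0.516. VCL, which encodes vinculin, stood at 76.8, 66.8 and 79.8 FPKM in the controls and at 87.8, 76.1 and 90.0 FPKM with LPS, and LPS 2 lay below controls 1 and 3 (log2 change 0.18, SE 0.11, limma adjusted p = 0.606). Without control 2 the change was 0.108. TLN1 lies at chr9:35696948-35732195 and VCL at chr10:73995193-74121363.

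FLNA, which encodes filamin A, was the most abundant of the 8 at 383, 365 and 386 FPKM in the controls and 406, 394 and 456 FPKM with LPS (log2 change 0.15, SE 0.094, limma adjusted p = 0.634). All 3 LPS libraries lay above the controls, and the change was 0.0826 without LPS 3. ACTN4, which encodes the other non-muscle alpha-actinin, stood at 59.5, 63.2 and 62.4 FPKM in the controls and at 73.3, 70.3 and 57.7 FPKM with LPS, and LPS 3 lay below every control (log2 change 0.11, SE 0.11, limma adjusted p = 0.762). Its change was 0.0458 without LPS 1, 0.0761 without LPS 2 and 0.218 without LPS 3. FLNA lies at chrX:154348524-154374638 and ACTN4 at chr19:38647649-38731589.

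PXN, which encodes the scaffold paxillin, stood at 57.8, 69.6 and 54.5 FPKM in the controls and at 78.3, 45.2 and 85.6 FPKM with LPS. LPS 2 was the lowest of all 6 libraries and LPS 3 the highest, so the groups overlapped (log2 change 0.15, SE 0.24, limma adjusted p = 0.848). The change was −0.0187 without LPS 3, 0.0446 without LPS 1, 0.0825 without control 3, 0.257 without control 2 and 0.438 without LPS 2. LPP, the zyxin relative, was the least abundant at 14.4, 17.3 and 28.02 FPKM in the controls and 19.6, 18.6 and 24.1 FPKM with LPS (log2 change 0.11, SE 0.24, limma adjusted p = 0.904). Control 3 was the highest library for LPP, and the change was −0.0917 without control 1, −0.000853 without LPS 3, 0.0371 without control 2, 0.181 without LPS 2 and 0.379 without control 3. PXN lies at chr12:120210439-120265771 and LPP at chr3:188153284-188890671.

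**Figure D3:**
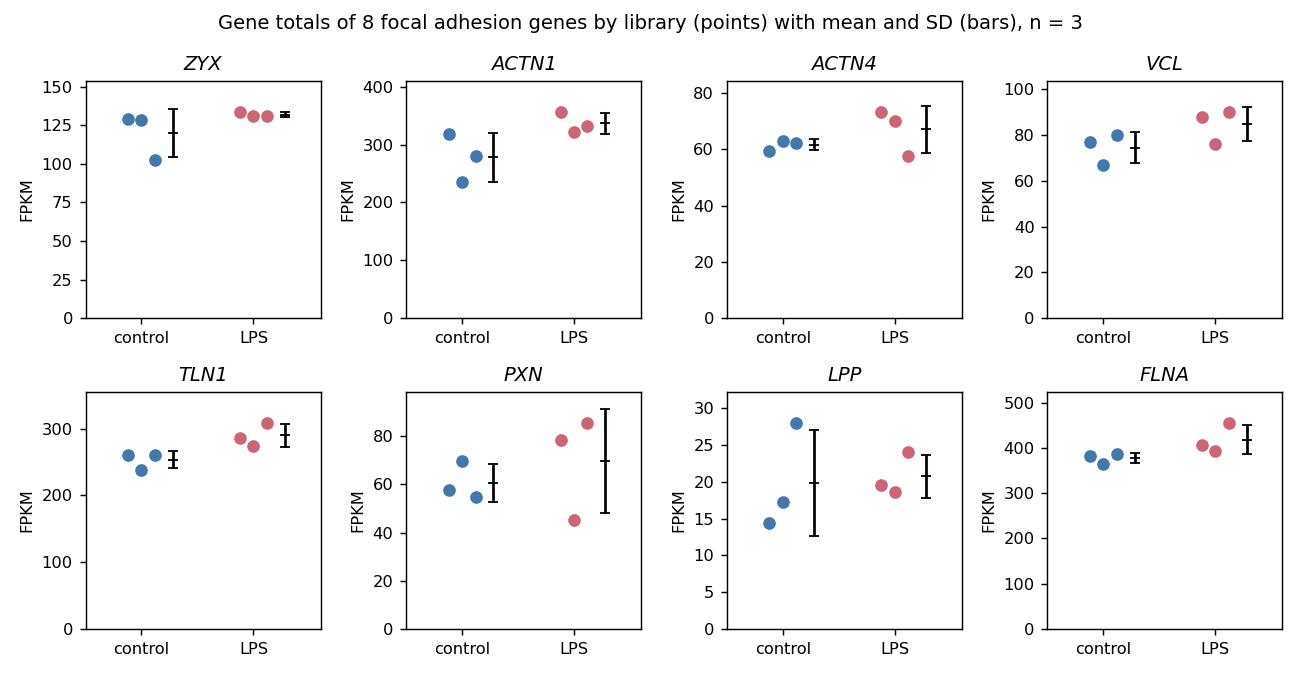
Gene totals in FPKM (y axes, from 0) of the 8 genes in the 3 control (blue) and 3 LPS (pink) libraries, with the mean and SD of each group beside the points. The groups are apart in ZYX, ACTN1, TLN1 and FLNA and overlap in ACTN4, VCL, PXN and LPP.

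The isoforms of the 6 genes other than ZYX and ACTN1 were tested over the whole transcript table, both as levels and as usage, the log2 ratio of an isoform to the summed other isoforms of its gene. Of their 40 tested transcripts 0 passed by limma as levels and 0 as usage, with 2 and 1 at an unadjusted p under 0.05. Over all tested transcripts 2060 of 35727 levels and 1655 of 33837 usage values had an unadjusted p under 0.05. The lowest adjusted p was 0.417 for levels and 0.754 for usage, both for LPP-207. Of all tested transcripts 0.098% passed as levels and 0.103% as usage.

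TLN1 was made up almost wholly of a single isoform, and VCL for the most part. TLN1-201 took 96.7%, 94.8% and 96.6% of the gene in the controls and 97.0%, 95.6% and 97.0% with LPS. VCL-201 took 89.4%, 88.4% and 88.4% in the controls and 91.9%, 85.9% and 81.3% with LPS, with LPS 1 the highest and LPS 3 the lowest of all libraries.

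The vinculin isoform to which most of the signal was assigned had the longer coding sequence of the 2 full coding models. VCL-201 has a coding length of 3402 bases and holds the exon of metavinculin, a form known mainly from muscle, while VCL-202, with 3198 coding bases, is the usual vinculin without it. The exon lies at chr10:74111909-74112112 on the plus strand of GRCh38 (204 bases, 68 codons) and is shown, in capitals with 15 bases of flank, because the leading isoform carries it.
VCL metavinculin exon, from VCL-201: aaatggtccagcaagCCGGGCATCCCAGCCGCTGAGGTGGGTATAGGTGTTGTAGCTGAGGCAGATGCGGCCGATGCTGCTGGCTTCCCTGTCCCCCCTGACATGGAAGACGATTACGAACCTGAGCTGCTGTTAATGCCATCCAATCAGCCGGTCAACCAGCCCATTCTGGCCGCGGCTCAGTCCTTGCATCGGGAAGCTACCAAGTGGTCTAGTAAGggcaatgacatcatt
VCL-201 stood at 68.7, 59.0 and 70.6 FPKM in the controls and at 80.7, 65.3 and 73.2 FPKM with LPS, with overlapping groups (limma adjusted p = 0.873). VCL-202, named after its values were seen, stood at 2.77, 3.50 and 1.67 FPKM in the controls and at 2.32, 4.52 and 3.22 FPKM with LPS. VCL-201 was thus assigned the higher level in all 6 libraries. Reads across junctions were not available, so this rests on the authors' estimates, and whether the cells mainly hold the metavinculin form was not tested. VCL-201 has 0 bases and 0 junctions that are found in no other VCL row. VCL-201 has 204 bases and 2 junctions that VCL-202 lacks, and VCL-202 has 1203 bases and 1 junction that VCL-201 lacks.

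FLNA was divided between the coding FLNA-203 and FLNA-215, a transcript annotated as a retained intron. FLNA-203 stood at 261, 256 and 234 FPKM in the controls and at 285, 293 and 321 FPKM with LPS (log2 change 0.26, SE 0.090, limma adjusted p = 0.819). Its LPS values all lay above the controls, as did those of the gene total. FLNA-215 stood at 101, 85.0 and 119 FPKM in the controls and at 94.5, 82.0 and 101 FPKM with LPS, and the groups overlapped. FLNA-203 took 60.6% to 70.2% of the gene in controls and 70.1% to 74.3% with LPS.

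ACTN4 showed a similar division between the coding ACTN4-201 and the retained-intron ACTN4-210. ACTN4-201 stood at 42.9, 33.0 and 37.7 FPKM in the controls and at 34.5, 33.8 and 35.6 FPKM with LPS (limma adjusted p = 0.896). ACTN4-210 stood at 12.1, 24.4 and 18.8 FPKM in the controls and at 33.5, 32.5 and 14.99 FPKM with LPS, where LPS 1 and LPS 2 exceeded every control and LPS 3 did not. ACTN4-210 shares all of its 11 junctions with ACTN4-201 and has 211 bases that ACTN4-201 lacks.

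Of the 6 tested genes, PXN had the composition that differed most among the libraries of a group. PXN-203, annotated as a target of nonsense-mediated decay, stood at 11.1, 0.0728 and 38.0 FPKM in the controls, at 1.23 and 9.55 FPKM in LPS 1 and 2, and was listed at 0 in LPS 3. PXN-222, of the same class, stood at 30.8 FPKM in control 2 and between 0.388 and 2.68 FPKM in the other 5 libraries. PXN-214, also of that class, was listed at 17.8 FPKM in control 1, at 28.6 FPKM in LPS 3 and at 0 in the other 4 libraries. Each of these isoforms was therefore high in 1 or 2 libraries of a group and low or at 0 in the rest.

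The coding PXN-207 stood at 4.63, 20.5 and 2.45 FPKM in the controls and at 36.8, 6.46 and 36.3 FPKM with LPS, with LPS 2 below control 2. PXN-206, also coding, lay between 2.17 and 2.89 FPKM in the controls and at 12.6, 5.94 and 2.41 FPKM with LPS. PXN-219, coding as well, stood at 13.0, 3.21 and 1.88 FPKM in the controls and at 14.4, 15.4 and 3.87 FPKM with LPS. None of the 3 separated the groups.

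Summed by class, the coding rows of PXN took 41.2%, 45.1% and 23.0% of the gene in the controls and 87.0%, 68.7% and 54.6% with LPS. The groups did not overlap, at 36.4% ± 11.8 and 70.1% ± 16.2 (SD, n = 3). This separation depends on PXN-219, a short model of 588 bases with 94 coding bases. PXN-219 took 22.5%, 4.61% and 3.45% in the controls and 18.4%, 34.2% and 4.53% with LPS. Without PXN-219 the coding share of LPS 2 would lie below that of control 2, and the groups would overlap. No test is given, since the summary was chosen after the values were seen. Over all genes measured this way the coding share was higher in every LPS library than in every control in 4.52% of 6677. The 3 nonsense-mediated decay rows took 51.1%, 44.3% and 70.4% in the controls and 4.99%, 23.0% and 35.0% with LPS. In FPKM the coding rows overlapped, at 23.8, 31.4 and 12.6 in the controls and 68.2, 31.1 and 46.7 with LPS, where LPS 2 lay below control 2. In the other 7 genes the coding share overlapped between the groups.

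LPP was led by LPP-220, at 6.39, 9.59 and 17.3 FPKM in the controls and 5.95, 7.34 and 11.8 FPKM with LPS. LPP-221 was listed at 9.62 FPKM in LPS 1, where it took 49.0% of the gene, and at 0 in the other 5 libraries. LPP-207 stood at 2.24, 1.70 and 1.77 FPKM in the controls, at 0.574 FPKM in LPS 1 and was listed at 0 in LPS 2 and 3, with a limma adjusted p of 0.417. LPP-201 stood at 2.65, 2.74 and 1.08 FPKM in the controls and at 0.590, 4.03 and 4.65 FPKM with LPS. For LPP-207 the groups did not overlap, and for LPP-220 and LPP-201 they did.

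**Figure D4:**
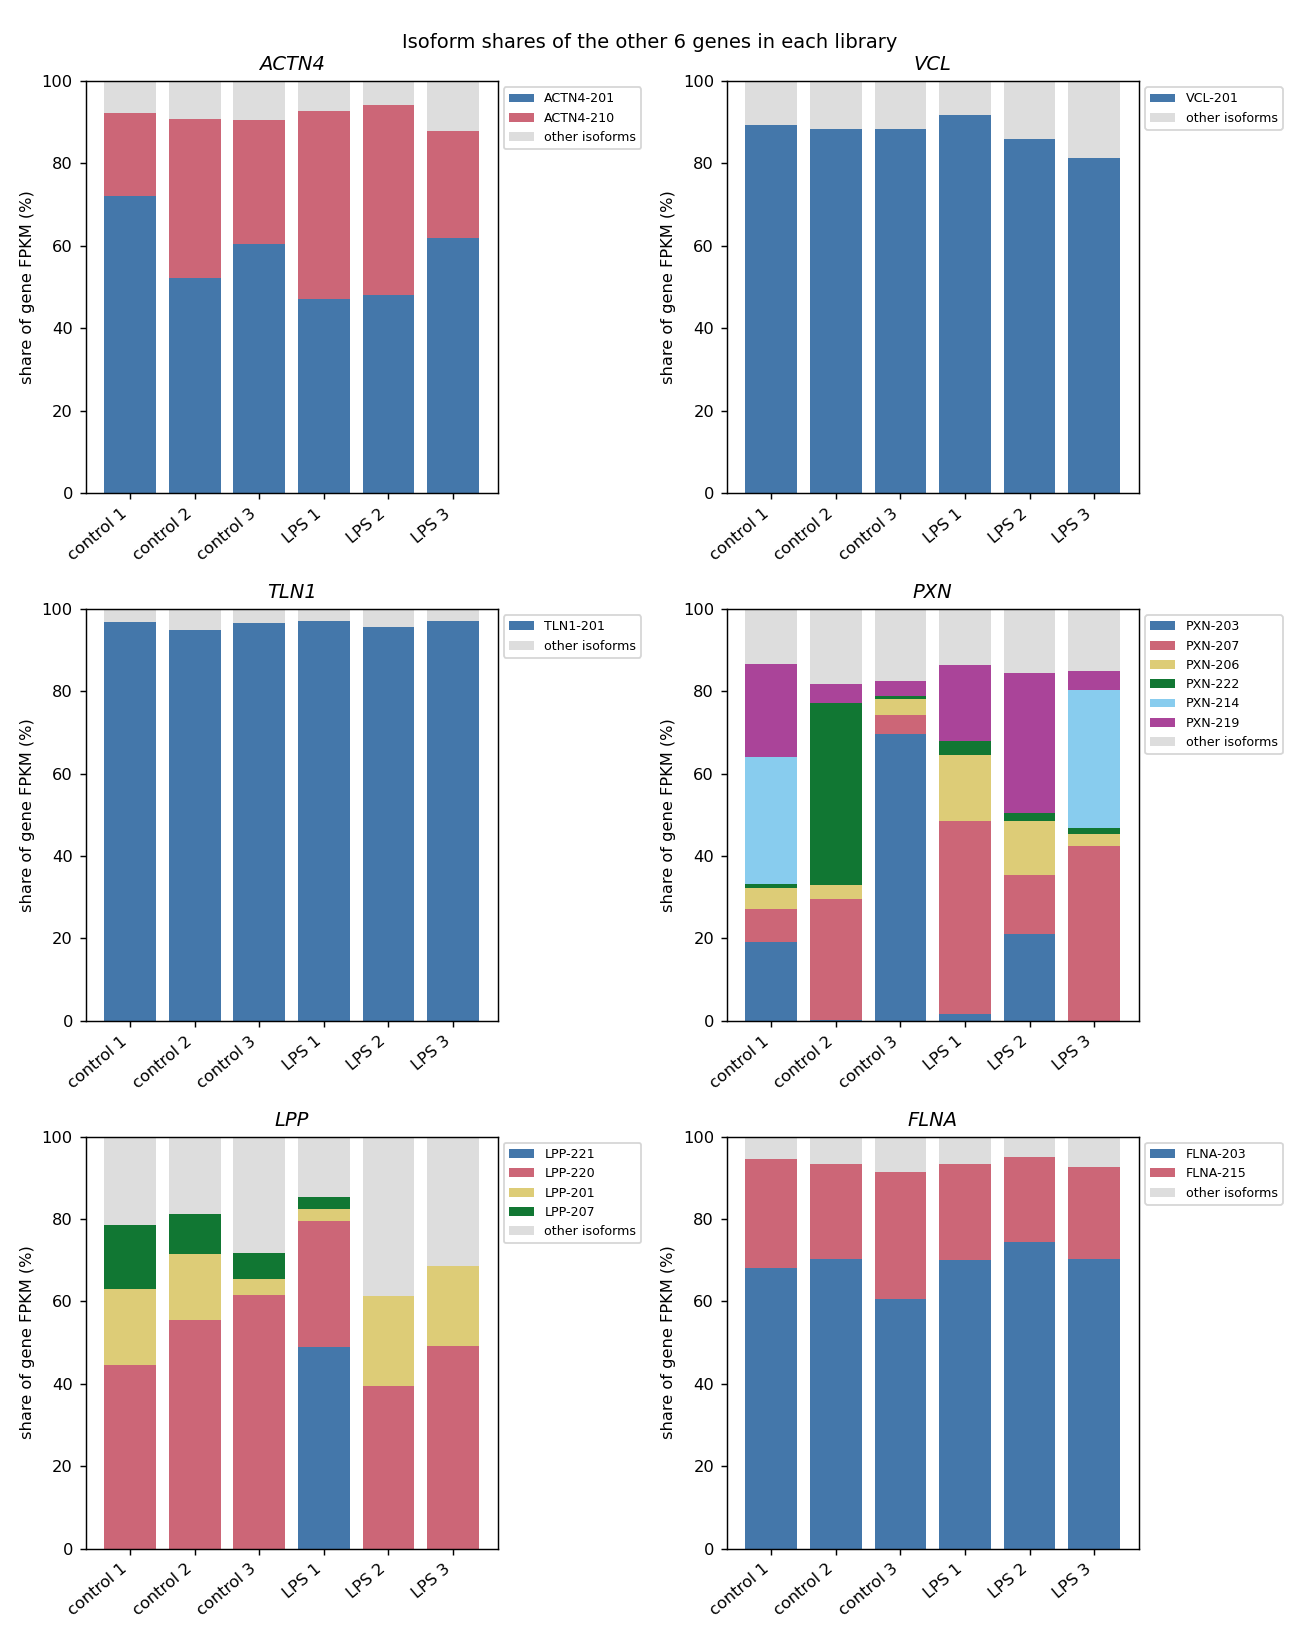
Stacked bars of the share of gene FPKM (y axis, in %) taken by each isoform of at least 10% mean share in either group, for ACTN4, VCL, TLN1, PXN, LPP and FLNA in the 6 libraries (x axis), with other isoforms in grey. TLN1-201 takes 94.8% to 97.0% of every bar, while the colours of PXN change from library to library within each group.

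To set these patterns on a single scale, the isoform distance between a pair of libraries was taken as the percentage of a gene's FPKM that is assigned to different isoforms in them. This measure was also chosen after the values were seen. For ZYX it was 2.39% to 14.5% among controls, 1.29% to 6.74% among LPS libraries and 73.0% to 81.5% between the groups. For ACTN1 it was 7.67% to 63.1% among controls, 2.49% to 57.3% among LPS libraries and 73.6% to 76.8% between the groups. In both genes every distance between the groups exceeded every distance within them, which held for 44 of 6943 genes with several isoforms, or 0.634%. Since both were picked for this difference, nothing is read from that count.

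In the 6 others the distances between groups overlapped those within. PXN libraries differed from each other by 59.0% to 75.7% among controls, 37.1% to 65.8% among LPS libraries and 33.6% to 79.1% between the groups. LPP ranged from 20.0% to 54.3% within groups and from 22.6% to 57.0% between them. TLN1 was at most 2.14% within and 2.69% between, and VCL at most 10.8% within and 8.95% between. FLNA reached 10.7% within and 13.9% between, and ACTN4 20.2% within and 26.3% between. The median over all genes was 16.2% within and 16.3% between the groups.

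**Figure D5:**
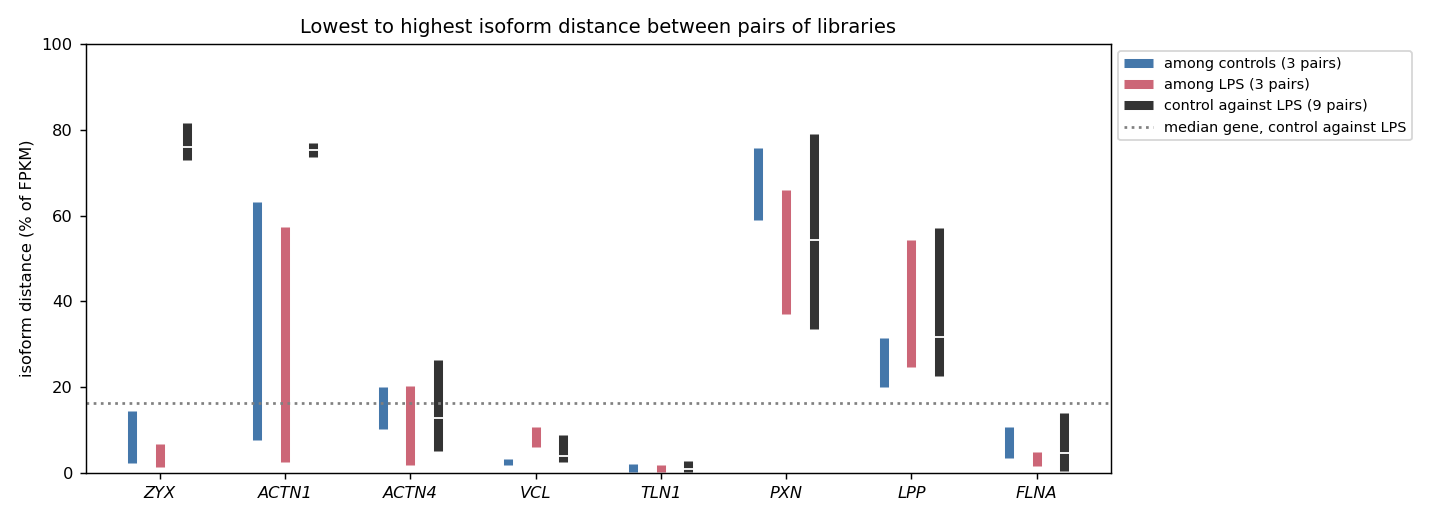
Lowest to highest isoform distance (y axis, % of FPKM assigned to different isoforms) for each gene (x axis) among the 3 control pairs, among the 3 LPS pairs and over the 9 pairs of a control and an LPS library, with a white tick at the median of the last and a dotted line at its median over all genes. ZYX and ACTN1 lie at 73.0% or more between groups, PXN is as variable within groups as between them, and TLN1 stays under 2.69%.

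Isoforms listed at 0 in some libraries were not particular to these genes. Of 5394 transcripts of at least 5 FPKM in every control, 9 (0.167%) were listed at 0 in every LPS library, and ZYX-202 and ACTN1-203 are 2 of these 9. By mean control FPKM ACTN1-203 ranked 2 and ZYX-202 ranked 3 among the 9. Since ZYX and ACTN1 were picked for their isoform differences, nothing is read from this count or from the ranks. The converse, at least 5 FPKM in every LPS library and 0 in every control, held for 0 of 5368. Within the controls alone, 7.68% of 10110 transcripts that reached 5 FPKM in a control were at 0 in another, and within the LPS libraries 8.47% of 10208. Among the 8 genes this held for 2 of 26 rows within the controls and 3 of 28 within the LPS libraries.

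Other genes of the focal adhesion did not pass the threshold at the level of the gene. A list of 75 integrins, adaptors, kinases and actin regulators, the 8 genes left out, had 70 tested members. Of these 0 rose and 0 fell by limma (lowest adjusted p = 0.197), where only 0.058% of all tested genes passed in either direction. At an unadjusted p under 0.05 there were 10 of the 70, against 1254 of all 12068 tested genes, in either direction. Of the 10, 9 were higher with LPS. In 50 of the 70 the log2 difference was positive, and the median change was 0.11 beside −0.01 over all genes. The groups were apart with LPS higher in 16 and lower in 2 of them, against 8.68% and 8.73% of all tested genes. Of the list's 334 tested transcripts 0 passed by limma as levels and 0 as usage, against 0.098% and 0.103% of all tested transcripts.

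Among them ITGB3, the beta 3 integrin subunit, stood at 55.7, 44.8 and 49.7 FPKM in the controls and at 80.6, 68.2 and 93.9 FPKM with LPS (log2 change 0.68, SE 0.14, limma adjusted p = 0.197). FERMT3, which encodes the integrin activator kindlin-3, stood at 6.76, 9.88 and 6.79 FPKM in the controls and at 15.4, 12.6 and 11.3 FPKM with LPS (log2 change 0.72, SE 0.18, limma adjusted p = 0.273). Both were apart between the groups without passing the threshold. ENAH, an actin elongation factor that zyxin binds, stood at 17.8, 7.79 and 18.6 FPKM in controls and 22.7, 20.1 and 17.4 FPKM with LPS, with control 2 low and the groups overlapping.

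The caveolar coat gene CAV1 stood at 141, 148 and 270 FPKM in the controls and at 119, 117 and 119 FPKM with LPS, with control 3 high (log2 change −0.59, SE 0.23, limma adjusted p = 0.447). PDLIM5, a LIM protein that binds alpha-actinin, lay between 33.8 and 58.5 FPKM in controls and between 25.9 and 36.8 FPKM with LPS. LASP1, an actin-binding LIM protein, was low in LPS 3 alone, at 44.6 FPKM against 100.03 to 138 FPKM in the other 5 libraries. The most abundant genes of the list were the actins ACTB (1494 ± 334 and 1542 ± 217 FPKM in controls and with LPS) and ACTG1 (1039 ± 171 and 1193 ± 92.8 FPKM), and the integrin subunit ITGA5 (804 ± 106 and 1025 ± 60.2 FPKM, SD, n = 3).

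In the check of the cell label, 10 of 10 endothelial markers reached a mean of 1 FPKM, with a summed level of 372 to 485 FPKM in controls and 436 to 573 FPKM with LPS. Of 5 leukocyte markers 0 reached it, and PTPRC and CD3E were listed at 0 in every library. Of 6 fibroblast or smooth muscle markers 5 did, with sums of 2664 to 2917 FPKM and 2583 to 2970 FPKM. These sums overlapped between the groups and lay above the endothelial sums in every library. The largest levels were those of COL1A1 (1548, 1358 and 1277 FPKM in controls, 1565, 1457 and 1556 FPKM with LPS) and COL3A1. COL3A1 stood at 788, 877 and 769 FPKM in the controls and at 745, 741 and 512 FPKM with LPS. Every LPS library lay below every control for COL3A1, while the groups overlapped for COL1A1, PDGFRB, ACTA2, TAGLN and DES. Of 6 epithelial markers 4 reached a mean of 1 FPKM, all keratins, while EPCAM and CDH1 were at or near 0. The sum of the 6 was 125 to 138 FPKM in controls and 91.2 to 114 FPKM with LPS. KRT8, KRT18 and KRT19 were lower in every LPS library than in every control, whereas KRT7 was higher in every LPS library, at 18.8, 20.2 and 32.5 FPKM against 17.7, 17.4 and 15.9 FPKM. The groups were apart for the epithelial sum, as for ZYX-201, ZYX-202, ACTN1-201, ACTN1-203 and ACTN1-204. The part of this sum, or of the endothelial markers and COL3A1 that were apart, in those isoform results was not tested. In bulk libraries, fewer cells of a type and less RNA per cell cannot be told apart.

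Each of the 8 genes overlaps at least 1 other annotated gene, and the counting strand is not given in the sources used here. ZYX overlaps EPHA1 on the opposite strand, ACTN4 overlaps CAPN12, VCL overlaps AP3M1, TLN1 overlaps CREB3, and PXN and LPP overlap the antisense genes PXN-AS1 and LPP-AS1. ACTN1 overlaps the pseudogenes HMGN1P3 and BANF1P1. Their levels are uncertain to that extent.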

How the data were processed

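FPKM values were calculated and deposited by the authors for 6 libraries, in tables of protein-coding genes and of all annotated transcripts. Per the submitters' processing notes the tools were HISAT2 and StringTie, with no version, and the build was mm9, a mouse genome. The identifiers and positions in the tables are nevertheless human (Ensembl, GRCh38). Read counts were not used here. Whole reads were sought in the nonzero values, multiplied by length, of single-exon, single-transcript genes longer than 1500 bases. Only 25.7% to 29.4% of these values were whole multiples of a common step (tolerance 0.02). No whole reads were therefore recovered, and depth is unknown. Summed protein-coding FPKM ranged from 256047 to 264878. Of the 122 transcript rows 119 were found in GENCODE 29, 114 with the same start and end, and 3 were assembled by the authors. Exons and sequences are those of GENCODE 29, and for ZYX-201 the deposited start is 143381345 and that of GENCODE 29 is 143381080.

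Rows averaging 0.5 FPKM or more were transformed to log2(FPKM + 0.5) and fitted in limma 3.58.1 (R 4.3.3) with the group as the only term and eBayes moderation with a trend. P-values were two-sided and adjusted by Benjamini-Hochberg over each whole table. Adding 0.5 understates changes of low features. Usage was tested in the same way, as the log2 ratio of an isoform (+ 0.5) to the other isoforms of its gene (+ 0.5). These fits were tested on simulated data with known changes. Shares are percentages of the FPKM summed over all transcript rows of a gene in a library. No fold is given for an isoform listed at 0 throughout a group.

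The genes and lists were chosen with earlier results of these data known. Isoforms with a mean share of at least 10% in either group are named (22 rows), and the other 100 took at most 16.7% in any library. From the list, the 3 largest changes each way (mean of at least 5 FPKM) and the 3 most abundant genes are named. The isoform distance, the counts of isoforms at 0 and the coding share were added after the values were seen. The distance used genes of at least 5 FPKM. Alternatives were pseudocounts of 0.1 and 1, no filter, a minimum of 1 FPKM, median-of-ratios rescaling, a replicate block, other denominators of the shares, and leaving out each library.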

Additional observations from a re-analysis of the deposited data

How the results depend on the processing

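Over all protein-coding genes limma called 7, and this count was 0 without a filter (1563 at an unadjusted p under 0.05), between 0 and 8 when each library was left out, and 0 without control 2 (1046) or LPS 2 (1213). Over all transcripts it called 35, against 22 without a filter and 44 to 60 when each library was left out, and in usage 35, against 21 and 13 to 32. The replicate block gave 0 calls for genes, transcripts and usage, with 1451, 1888 and 1523 at an unadjusted p under 0.05. Whether the replicate numbers pair the libraries is not settled. The correlations of same-numbered deviations were 0.0175, 0.105 and 0.0605, and those of unlike numbers ran from −0.084 to 0.0228. Control 1 went best with LPS 3 (0.0228). The focal adhesion list had 0 calls in every setting.

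The ZYX-201 share difference was 72.4 to 74.9 points under other denominators or pooling and the ACTN1-204 difference 42.8 to 45.9 points. Leaving out each library gave 70.4 to 74.9 and 33.1 to 60.97 points. Of 96 recomputed log2 changes of gene totals 93 kept their direction, the exceptions being PXN (−0.0187 without LPS 3) and LPP (−0.0917 without control 1, −0.000853 without LPS 3). When each library was left out, ZYX ranged from 0.034 to 0.202, ACTN1 from 0.168 to 0.388, ACTN4 from 0.0458 to 0.218, VCL from 0.108 to 0.258, FLNA from 0.0826 to 0.188, TLN1 from 0.146 to 0.232, PXN from −0.0187 to 0.438 and LPP from −0.0917 to 0.379. The level of PXN-222 ranged from −1.58 to 0.991 (turned without control 2), of PXN-214 from −1.73 to 1.95 (without control 2, control 3 or LPS 3), of LPP-220 from −0.648 to 0.0362 (without control 3) and of LPP-201 from −0.184 to 0.935 (without control 3, LPS 2 or LPS 3). Usage ranged from −2.05 to 0.755 for PXN-222, −1.89 to 2.02 for PXN-214 and −0.533 to 0.92 for LPP-201, turning without the same libraries, from −0.592 to 0.0686 for VCL-201 (without LPS 3) and from −0.0399 to 0.355 for TLN1-201 (without control 2). The cause of these was not tested. Depth limits all isoform values to an unknown extent, since FPKM carries none.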

Other observations

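Relatives of the 8 genes were described from the gene table. Of those given here 0 passed the threshold by limma, against 0.058% of all tested genes. Of the zyxin family, TRIP6 stood at 50.3, 49.96 and 47.8 FPKM in the controls and at 50.9, 62.0 and 51.6 FPKM with LPS, LIMD1 at 9.05 ± 1.03 and 9.92 ± 0.725 FPKM, AJUBA at 7.89 ± 0.934 and 8.34 ± 1.83 FPKM and WTIP at 0.831 ± 0.111 and 0.868 ± 0.0810 FPKM (controls, then LPS, as mean ± SD, n = 3). The muscle alpha-actinins ACTN2 and ACTN3 were at or near 0 in every library. TLN2, the other talin, stood at 2.86, 3.61 and 3.82 FPKM in the controls and at 2.40, 2.67 and 2.02 FPKM with LPS, apart between the groups and lower with LPS where TLN1 was higher (log2 change −0.45, SE 0.16, limma adjusted p = 0.401).

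Of the paxillin family, TGFB1I1, which encodes Hic-5, stood at 49.1, 50.2 and 43.5 FPKM in the controls and at 51.2, 55.9 and 61.3 FPKM with LPS (limma adjusted p = 0.502), and LPXN at 7.53 ± 1.90 and 8.03 ± 1.72 FPKM. The muscle-enriched filamin FLNC stood at 69.4 ± 10.8 and 73.1 ± 4.75 FPKM. CTNNA1, the alpha-catenin related to vinculin, stood at 92.5 ± 10.7 and 110 ± 14.5 FPKM, with overlapping groups.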
